A study of Mus musculus with 16 samples.

Results

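The stage change of hemogenic endothelium in the mouse embryo was described by setting E10.5 against E9.5 in cells sorted from the embryo region. Hemogenic endothelium (HE) was taken from a gate of cells with Runx1-GFP and CD31, kit low or absent, and neither CD41 nor CD45. The embryo region held the aorta-gonad-mesonephros, portions of somite and the umbilical and vitelline vessels, after head, heart and lung, liver, gut, tail and limb buds had been cut away. The group had 2 libraries at E10.5 and 2 at E9.5, which is 4 of the 16 libraries of the series. A gene entered the comparison where at least 2 of these 4 libraries had an FPKM (a gene's fragments divided by its length and by the mapped fragments of the library) of at least 1. That left 12613 of the 33531 genes in the deposited table. The remaining 12 libraries covered embryo endothelial cells (EC; GFP-negative, CD31-positive and kit-negative, again with neither CD41 nor CD45) and both cell types from the yolk sac, with 2 libraries at each stage.

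All conceptuses of both stages had a B6C3F1 mother, treated with gonadotrophins, and a father homozygous for the Runx1GFP allele (Runx1tm4Dow), so every library carried the reporter allele from the father. Stages were assigned by somite count. The gate itself reads Runx1 through the reporter, so the cells are those with GFP protein at the time of sorting, at whatever level of Runx1 mRNA. Whether the 2 replicates of a stage are separate litters or sorts is not stated. The p-values below measure a spread between replicates that is pooled over all 8 groups of the series, EC and yolk sac included. That spread may be technical.

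Hemogenic endothelium is the part of the vessel wall that gives rise to blood. Its cells pass through an endothelial-to-hematopoietic transition, in which the transcription factor Runx1 and its target Gfi1 shut down endothelial genes while the cell rounds up and leaves the wall. In the embryo this takes place in the dorsal aorta and in the vitelline and umbilical arteries, where Notch, BMP, Wnt and retinoic acid signals act on the endothelium and its surroundings.

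The 4 libraries were similar in depth and content. FPKM summed to 624520 to 689965 at E10.5 and 586501 to 615308 at E9.5, and between 12270 and 12527 genes reached 1 FPKM in each. Depth in reads is unknown, but the steps between low values placed E10.5 replicates 1 and 2 at 0.865 and 1.125 times the reads of E9.5 replicate 1, and E9.5 replicate 2 at 1.05 times. Replicates correlated across the tested genes at r = 0.972 at E10.5 and r = 0.976 at E9.5. Ribosomal protein genes took 22.8% and 20.7% of FPKM at E10.5, against 18.2% and 19.6% at E9.5. The sorted cells carried endothelial RNA at both stages: Pecam1, which encodes CD31, had 191 and 178 FPKM at E10.5, against 131 and 150 FPKM at E9.5. Ptprc, which encodes CD45, stayed at or under 0.0969 FPKM in all 4 libraries and was not tested. In the embryo Runx1 was higher in each HE library than in the EC libraries of the same stage, at 3.13 to 3.74 FPKM in E10.5 HE against 0.805 and 0.956 FPKM in E10.5 EC. In the yolk sac at E10.5 the levels overlapped, at 2.19 and 2.17 FPKM in HE, against 2.60 and 2.04 FPKM in EC.

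Between the stages, 253 genes (2.01% of those tested) passed limma's test on log2(FPKM + 1) at an adjusted p under 0.05 and are called changed here. Of these, 160 (1.27%) were higher and 93 (0.737%) lower at E10.5, and 137 and 84 of them changed at least 2-fold on that scale. The 1.27% and 0.737% are the shares to set beside the list counts below. The 4 values did not overlap between stages for any of the 253, but the same held for 6336 (50.2%) of all tested genes. Most rises began near the floor: 90 of the 160 had a mean under 1 FPKM at E9.5, whereas 31 of the 93 falls had a mean under 1 FPKM at E10.5. Of the tested genes, 6041 lay above 0 and 6572 below, with a median difference of -0.02. The count rests on each of the 4 HE libraries, since 78 genes were called without E9.5 replicate 1, 103 without E9.5 replicate 2, 139 without E10.5 replicate 1 and 92 without E10.5 replicate 2. In each of 16 fits that left out 1 of the 16 libraries, 55 of the 253 genes passed. Unless stated, a gene named below as risen or fallen is among those 55, and replicate numbers without a cell type refer to embryo HE.

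**Figure D1:**
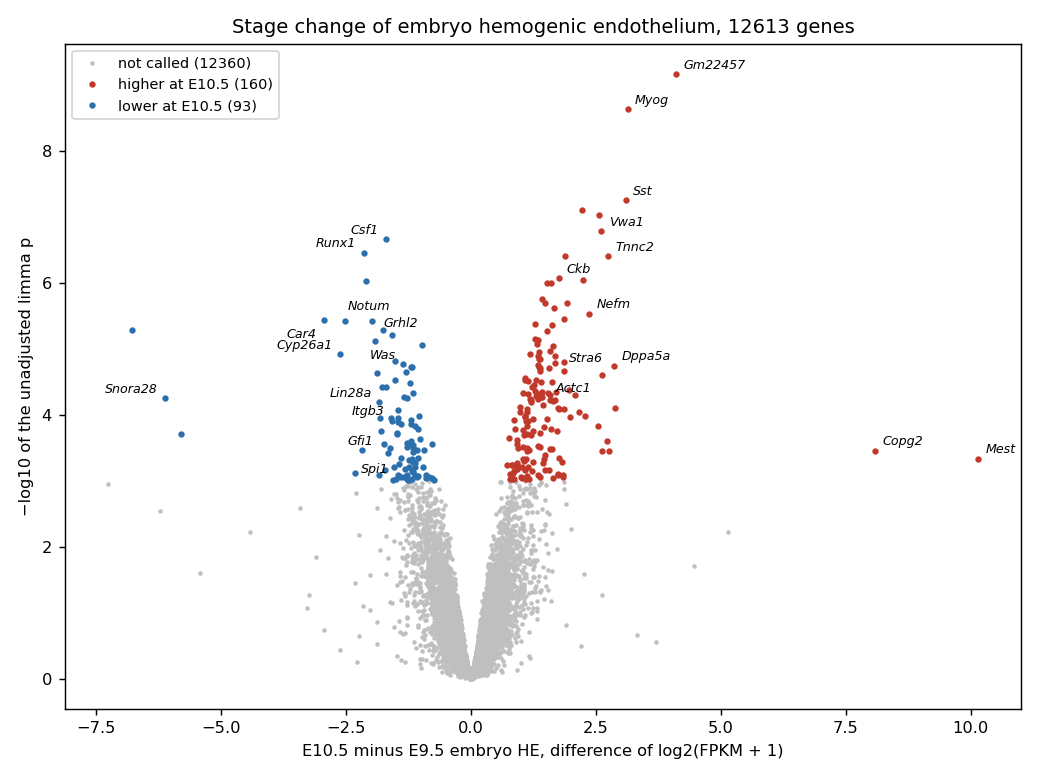
Difference of log2(FPKM + 1), E10.5 minus E9.5 embryo HE, on the horizontal axis against -log10 of the unadjusted limma p on the vertical axis, 1 point per tested gene. Red points are the 160 genes called higher at E10.5, blue points the 93 called lower and grey points the others.

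Runx1 and Gfi1, the transcription factors that drive the transition, were lower at E10.5. Runx1 had 3.74 and 3.13 FPKM at E10.5, against 21.5 and 15.9 FPKM at E9.5, a fall of 2.14 ± 0.21 on the log2 scale (SE; limma adjusted p = 4.96e-04). Gfi1, the repressor through which Runx1 silences endothelial genes, had 9.42 and 4.21 FPKM at E10.5, against 31.9 and 19 FPKM at E9.5 (log2 difference -1.80 ± 0.33, limma adjusted p = 0.0162). Every E10.5 library lay below every E9.5 library for both genes, and the replicates of Gfi1 differed by more than those of Runx1. Spi1, the PU.1 factor of early blood progenitors, had 4.71 and 2.14 FPKM at E10.5, against 13.1 and 9.10 FPKM at E9.5 (-1.50 ± 0.34, limma adjusted p = 0.0482). In bulk libraries such as these, fewer cells with a transcript and less transcript per cell cannot be told apart. Gfi1 was not called without E9.5 replicate 1 (limma adjusted p = 0.172) or E10.5 replicate 2 (0.139). Spi1 passed in 3 of the 16 fits that left out a library and reached 0.343 without E9.5 replicate 1.

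The mouse Runx1 gene has a distal and a proximal promoter, and FPKM is given per gene, so the fall cannot be assigned to either. The bases around the more upstream of its start sites in the RefSeq promoter table are shown because the factor's own core motif stands in them. The window is chr16:92826025-92826324 on the minus strand (RefSeq, GRCm38.p6, 250 bases before the start and 50 from it on). Capitals mark ACCACA, the reverse complement of TGTGGT, whose 2 copies begin at bases 29 and 37 counted from the start. TGTGGT was searched on both strands and occurs in 5428 of 32544 promoter windows of this length (16.7%). No match stands in the window at the other listed start.
Runx1 upstream start: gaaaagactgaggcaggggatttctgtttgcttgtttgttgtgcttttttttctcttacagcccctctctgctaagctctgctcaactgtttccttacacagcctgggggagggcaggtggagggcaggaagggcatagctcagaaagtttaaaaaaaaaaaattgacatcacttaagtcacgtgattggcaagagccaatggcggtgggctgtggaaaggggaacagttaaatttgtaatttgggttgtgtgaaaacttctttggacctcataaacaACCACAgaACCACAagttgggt

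Beyond Runx1, Gfi1 and Spi1, no member of the list of blood transcription factors passed the test. Of its 32 tested members, these 3 fell and none rose, against 0.737% called lower among all tested genes. Runx1 and Gfi1 are also among the 4 marker genes of this comparison. The list median was -0.35 against -0.02 for all tested genes. Below 0 lay 26 of the 32, against 6572 of the 12613 tested genes. Gata2, which acts upstream of Runx1, had 16.8 and 14.1 FPKM at E10.5, against 32.0 and 26.9 FPKM at E9.5 (-0.89 ± 0.31, limma adjusted p = 0.218). Tal1, the early blood and endothelial regulator, had 14.9 and 14.7 FPKM at E10.5, against 22.3 and 19 FPKM at E9.5 (adjusted p = 0.697). Cbfb, the partner subunit of Runx1, had overlapping values of 37.8 and 49.5 FPKM at E10.5, against 44.8 and 45.6 FPKM at E9.5 (-0.06 ± 0.21). Lmo2 lay on the other side, with 117 and 125 FPKM at E10.5, against 76.6 and 87.7 FPKM at E9.5 (0.55 ± 0.34, limma adjusted p = 0.553).

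**Figure D2:**
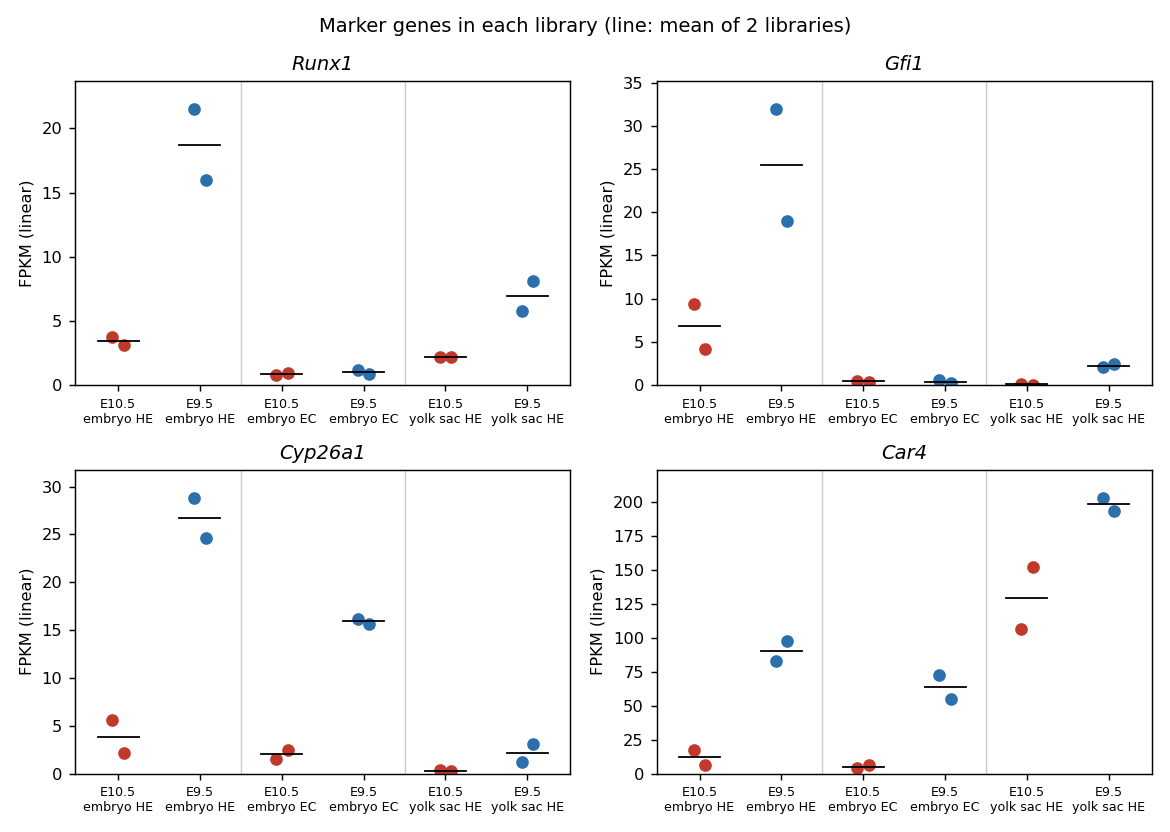
FPKM of Runx1, Gfi1, Cyp26a1 and Car4 in each library (points) with the mean of the group (line), for embryo HE, embryo EC and yolk sac HE, E10.5 left of E9.5. In embryo HE all 4 genes are lower in both E10.5 libraries, and Runx1 and Gfi1 are near the floor in embryo EC at both stages.

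Surface and signalling genes shared by blood cells moved the same way in a few cases. Of 23 tested members, 3 fell and none rose (list median -0.27), against 0.737% called lower among all tested genes. Was, the actin regulator of blood cells, had 2.24 and 1.91 FPKM at E10.5, against 7.01 and 6.73 FPKM at E9.5 (-1.36 ± 0.20, limma adjusted p = 0.00451). Cd44, an adhesion receptor on emerging hematopoietic clusters, had 5.86 and 5.43 FPKM at E10.5, against 14.9 and 13.7 FPKM at E9.5 (-1.20 ± 0.21, limma adjusted p = 0.0126). Itgb3, the integrin β3 chain that pairs with CD41, had 4.30 and 4.17 FPKM at E10.5, against 17.5 and 12.1 FPKM at E9.5 (-1.57 ± 0.28, limma adjusted p = 0.0127). Of these 3, Cd44 alone was also called lower in embryo EC. Cd44 lost its call without each of the 4 HE libraries (limma adjusted p of 0.0636 to 0.122), and Itgb3 without E9.5 replicate 1 (0.146), E10.5 replicate 1 (0.0759) or E10.5 replicate 2 (0.0947). Itga2b, the CD41 chain used as a gate, had 5.99 and 6.80 FPKM at E10.5, against 16.8 and 13.4 FPKM at E9.5 (-1.12 ± 0.31, limma adjusted p = 0.104), and Kit had 8.79 and 10.8 FPKM at E10.5, against 16.0 and 13.4 FPKM at E9.5 (adjusted p = 0.566). The E10.5 libraries were lower for both gate genes without passing the test.

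Markers of maturing blood lineages were mixed. Among 13 tested platelet genes, the chemokine Ppbp rose, with 4.92 and 5.66 FPKM at E10.5, against 0.670 and 1.64 FPKM at E9.5 (1.58 ± 0.26, limma adjusted p = 0.00806), and so did the platelet receptor Treml1, with 1.69 and 1.09 FPKM at E10.5, against 0.122 and 0 FPKM at E9.5 (1.16 ± 0.23, limma adjusted p = 0.0255), while Itgb3 is also on this list as its 1 fall. Ppbp was lost without E9.5 replicate 1 (limma adjusted p = 0.0992) or E10.5 replicate 2 (0.0784), and Treml1 without each of the 4 HE libraries (0.0637 to 0.181). The platelet list as a whole summed to 270 and 221 FPKM at E10.5, against 283 and 276 FPKM at E9.5. Most of that sum came from Vwf, F2r and Clec1b, which embryo EC carried too. E10.5 embryo EC had 73.1 and 35.4 FPKM of Vwf, 61.3 and 80.2 FPKM of F2r, and 125 and 83.4 FPKM of Clec1b. No macrophage gene (16 tested, median 0.26) and no erythroid gene (24 tested, median -0.16) passed. The macrophage genes summed to 259 and 204 FPKM at E10.5, against 280 and 318 FPKM at E9.5, with Lyz1 and Cd163 at 0 throughout. Apoe, which other cells express too, made up much of that sum, at 170 and 104 FPKM at E10.5, against 215 and 234 FPKM at E9.5. Some more specific markers lay the other way at low levels. The complement gene C1qb had 1.04 and 1.95 FPKM at E10.5, against 0.0289 and 0.0825 FPKM at E9.5 (1.22 ± 0.41, limma adjusted p = 0.193), and C1qc had 1.09 and 1.54 FPKM at E10.5, against 0.0255 and 0 FPKM at E9.5 (1.19 ± 0.28, limma adjusted p = 0.0538). Tyrobp had 1.53 and 1.55 FPKM at E10.5, against 0.650 and 0.209 FPKM at E9.5 (0.85 ± 0.30). The Fc receptor Fcgr3 instead had 0.752 and 1.35 FPKM at E10.5, against 2.84 and 2.97 FPKM at E9.5 (-0.94 ± 0.32, limma adjusted p = 0.198). Of the 16 tested macrophage genes, 11 lay above 0 and 5 below. The erythroid genes, led by the embryonic globin Hbb-y at 3951 and 5109 FPKM at E10.5, against 3958 and 2391 FPKM at E9.5, summed to 9415 and 12216 FPKM at E10.5, against 11352 and 6913 FPKM at E9.5. What part these cells or their free RNA had in the blood genes above was not tested.

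Genes of the retinoic acid pathway moved in opposite directions. Cyp26a1, the enzyme that breaks retinoic acid down and is itself induced by it, had 5.62 and 2.12 FPKM at E10.5, against 28.8 and 24.7 FPKM at E9.5 (-2.61 ± 0.36, limma adjusted p = 0.00386). Stra6, the cell-surface receptor that takes up retinol, had 16.9 and 25.4 FPKM at E10.5, against 5.80 and 4.2 FPKM at E9.5 (1.87 ± 0.28, limma adjusted p = 0.00488). Hoxb1, a Hox gene with retinoic acid response elements, had 0.929 and 1.31 FPKM at E10.5, against 4.0 and 3.68 FPKM at E9.5 (-1.20 ± 0.22, limma adjusted p = 0.0139). These 3 were the calls among 23 tested members, whose median was 0.21. Stra6 was lost without E9.5 replicate 2 (limma adjusted p = 0.0562) or E10.5 replicate 2 (0.0600), and Hoxb1 without each of the 4 HE libraries (0.0528 to 0.115).

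The remaining enzymes and receptors of the pathway did not pass. Aldh1a2, which makes retinoic acid in the trunk mesoderm, had 15.8 and 17.2 FPKM at E10.5, against 9.86 and 8.86 FPKM at E9.5 (0.76 ± 0.30, limma adjusted p = 0.301). Cyp26b1, the related degrading enzyme, had 21.3 and 21.3 FPKM at E10.5, against 18.9 and 17.6 FPKM at E9.5 (0.21 ± 0.46). The receptor Rarb, itself a retinoic acid target, had 6.07 and 8.13 FPKM at E10.5, against 3.83 and 7.74 FPKM at E9.5, with overlapping values, and Stra8 was at 0 in all 4 libraries. Of these genes, Aldh1a2 and Cyp26b1 were higher in both E10.5 libraries, by amounts that missed the threshold.

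The Cyp26a1 promoter is shown because it holds a repeat of the site bound by retinoic acid receptors. The window is chr19:37697558-37697857 on the plus strand (GRCm38.p6). Capitals mark a direct repeat of the retinoic acid receptor half-site with 5 bases between the copies, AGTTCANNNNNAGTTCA on the minus strand, whose first printed base lies 32 bases before the start. Searched on both strands with these exact letters, which are those of the promoter shown, this repeat occurs in 8 of 32544 promoter windows (0.0246%). Other spellings of the half-site were not searched, so the share covers this spelling only. The match is a description of the sequence, and no binding was measured.
Cyp26a1: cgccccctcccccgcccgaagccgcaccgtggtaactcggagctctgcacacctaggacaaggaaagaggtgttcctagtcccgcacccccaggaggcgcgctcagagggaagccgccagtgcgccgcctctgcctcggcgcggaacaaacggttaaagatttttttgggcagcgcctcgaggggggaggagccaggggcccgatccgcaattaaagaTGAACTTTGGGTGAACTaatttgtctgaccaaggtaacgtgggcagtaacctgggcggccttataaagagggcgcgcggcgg

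Car4, a carbonic anhydrase held on the outer face of the cell membrane, had the largest fall among the protein-coding genes named here. It had 17.4 and 6.67 FPKM at E10.5, against 83.0 and 97.7 FPKM at E9.5 (-2.94 ± 0.36, limma adjusted p = 0.00201). Both E10.5 libraries were several-fold lower, and E10.5 replicate 2 was the lowest. The transport list that contains Car4 had 24 tested members, of which 3 rose and 2 fell (median 0.18). The risen genes encode carriers of the specialised endothelium of the brain and other barriers: Mfsd2a, the lysophospholipid carrier, had 5.61 and 4.67 FPKM at E10.5, against 1.37 and 1.37 FPKM at E9.5 (1.37 ± 0.19, limma adjusted p = 0.00416). Slco2b1, an organic anion carrier, had 4.46 and 6.59 FPKM at E10.5, against 1.23 and 1.53 FPKM at E9.5 (1.44 ± 0.23, limma adjusted p = 0.00773), and Abcb1a, a drug efflux pump, had 2.11 and 1.43 FPKM at E10.5, against 0.253 and 0.307 FPKM at E9.5 (1.10 ± 0.20, limma adjusted p = 0.0127). Lipg, the endothelial lipase, fell, with 2.78 and 1.55 FPKM at E10.5, against 5.79 and 7.67 FPKM at E9.5 (-1.31 ± 0.29, limma adjusted p = 0.0411).
Slco2b1 was lost without E9.5 replicate 1 (limma adjusted p = 0.0851) or E10.5 replicate 2 (0.0810), and Abcb1a without E9.5 replicate 1 (0.106), E9.5 replicate 2 (0.0777) or E10.5 replicate 1 (0.10). Lipg passed in 6 of the 16 fits that left out a library and reached 0.264 without E9.5 replicate 2.

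Genes of general endothelial identity had no call. None of 32 tested members passed (median 0.10), and their FPKM summed to 5139 and 4412 at E10.5, against 3781 and 4140 at E9.5. Cdh5, the junction protein VE-cadherin, had 292 and 301 FPKM at E10.5, against 317 and 337 FPKM at E9.5 (-0.14 ± 0.52). Robo4, an endothelial guidance receptor, had 44.6 and 45.9 FPKM at E10.5, against 14.2 and 16.2 FPKM at E9.5 (1.52 ± 0.49, limma adjusted p = 0.170), and the tight junction gene Cldn5 had 464 and 380 FPKM at E10.5, against 225 and 247 FPKM at E9.5 (0.83 ± 0.56, limma adjusted p = 0.583). Etv2, the early inducer of the endothelial lineage, had 1.02 and 1.40 FPKM at E10.5, against 2.92 and 3.16 FPKM at E9.5 (-0.88 ± 0.23, limma adjusted p = 0.0943). Robo4, Cldn5 and Etv2 did not overlap between the stages and missed the threshold, which does not show that they were equal. The spread in the test comes from all 16 libraries, so a missing call does not rest on embryo HE alone. Emcn, also on this list, had 223 and 216 FPKM at E10.5, against 119 and 139 FPKM at E9.5 (0.76 ± 0.71). Its replicates in E10.5 yolk sac HE had 24.9 and 2.25 FPKM.

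Arterial genes leaned lower without a call. None of 22 passed, 15 lay below 0 and the median was -0.24. The ligand Efnb2 had 43.6 and 43.6 FPKM at E10.5, against 82.6 and 74.7 FPKM at E9.5 (-0.84 ± 0.39, limma adjusted p = 0.392), and the gap junction gene Gja5 had 70.7 and 40.3 FPKM at E10.5, against 85.6 and 90.6 FPKM at E9.5 (adjusted p = 0.558). Sox17, an arterial factor, overlapped between stages at 66.6 and 45.1 FPKM at E10.5, against 48.2 and 56.1 FPKM at E9.5. Among 19 venous, sinusoidal and lymphatic genes the median was 0.28 and Car4, which is also on that list, was the 1 call. The apelin receptor Aplnr had 196 and 207 FPKM at E10.5, against 82.2 and 110 FPKM at E9.5 (1.08 ± 0.46, limma adjusted p = 0.342). The VEGF and angiopoietin genes (20 tested, median 0.08) and the flow-response genes (16 tested, median 0.24) had no call. For the lists of this paragraph too, the spread in the test includes that between yolk sac replicates.

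Notch pathway genes were called in both directions. Of 28 tested members, 3 rose and 1 fell (median -0.08), against 1.27% called higher and 0.737% lower among all tested genes. Hes6, a member of the Hes family, had 42.1 and 36.8 FPKM at E10.5, against 22.4 and 18.0 FPKM at E9.5 (0.94 ± 0.18, limma adjusted p = 0.0229). Heyl, a Notch target of vascular smooth muscle, had 4.34 and 7.39 FPKM at E10.5, against 0.880 and 1.06 FPKM at E9.5 (1.77 ± 0.37, limma adjusted p = 0.0321), and Dtx4, of the Deltex ubiquitin ligases, had 6.38 and 7.31 FPKM at E10.5, against 2.43 and 2.76 FPKM at E9.5 (1.12 ± 0.19, limma adjusted p = 0.00996). Hes7, the oscillating repressor of the presomitic mesoderm, fell, with 0.346 and 0.127 FPKM at E10.5, against 2.36 and 3.00 FPKM at E9.5 (-1.57 ± 0.20, limma adjusted p = 0.00264). Notch1 (-0.27 ± 0.39) and Dll4 (-0.31 ± 0.42), the receptor and ligand of arterial endothelium, and the targets Hes1 (-0.37 ± 0.30) and Hey1 (-0.56 ± 0.30) were not called. Hes6 lost its call without each of the 4 HE libraries (limma adjusted p of 0.0676 to 0.208), Dtx4 without E9.5 replicate 1 (0.102), E9.5 replicate 2 (0.0575) or E10.5 replicate 2 (0.0821), and Heyl passed in 10 of the 16 fits and reached 0.214 without E10.5 replicate 2.

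The called members of the BMP and TGF-β list and of the Wnt list were all lower at E10.5. Notum, a secreted enzyme that inactivates Wnt ligands by removing their lipid, had 4.08 and 2.56 FPKM at E10.5, against 22.6 and 24.3 FPKM at E9.5 (-2.52 ± 0.31, limma adjusted p = 0.00201). Notum was named by the size of its change and is not on the Wnt list, of whose 41 tested members none rose and 2 fell (median -0.20). These were Dkk1, a secreted Wnt antagonist, with 2.42 and 1.09 FPKM at E10.5, against 5.90 and 6.74 FPKM at E9.5 (-1.45 ± 0.25, limma adjusted p = 0.0101), and Sp5, a Wnt target factor, with 1.11 and 0.725 FPKM at E10.5, against 2.83 and 2.55 FPKM at E9.5 (-0.95 ± 0.21, limma adjusted p = 0.0386). Of 35 BMP and TGF-β genes, none rose and 3 fell (median -0.18). Beside both lists, 0.737% of all tested genes were called lower. The ligand Bmp6 had 1.29 and 1.43 FPKM at E10.5, against 4.36 and 6.82 FPKM at E9.5 (-1.46 ± 0.26, limma adjusted p = 0.0131), the antagonist Nog had 3.5 and 1.81 FPKM at E10.5, against 7.94 and 6.78 FPKM at E9.5 (-1.23 ± 0.27, limma adjusted p = 0.0387), and the inhibitory Smad6 had 30.2 and 20.5 FPKM at E10.5, against 42.5 and 41.3 FPKM at E9.5 (-0.73 ± 0.17, limma adjusted p = 0.0487). Outside these lists, and picked after their values were seen, the Wnt receptor Fzd10 and the secreted BMP regulator Kcp rose. Fzd10 had 35.2 and 32.3 FPKM at E10.5, against 16.5 and 17.8 FPKM at E9.5 (0.93, limma adjusted p = 0.0203), and was lost without each of the 4 HE libraries (0.0845 to 0.172). Kcp had 8.42 and 11.2 FPKM at E10.5, against 2.73 and 2.75 FPKM at E9.5 (1.52, limma adjusted p = 0.0125), and was lost without E9.5 replicate 1 (0.0995), E9.5 replicate 2 (0.0916) or E10.5 replicate 2 (0.119).
Notum passed in every fit that left out 1 library, and the other falls did not. Dkk1 was lost without E9.5 replicate 1 (limma adjusted p = 0.0669), E9.5 replicate 2 (0.0931) or E10.5 replicate 2 (0.0854), and Bmp6 without E9.5 replicate 2 (0.145), E10.5 replicate 1 (0.0922) or E10.5 replicate 2 (0.0814). Sp5, Nog and Smad6 passed in 8, 9 and 3 of the 16 fits and reached 0.231, 0.255 and 0.276, each without E9.5 replicate 1.

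Other called falls among the named protein-coding genes included Lin28a, Csf1 and Slc18a2. Lin28a, the RNA-binding protein that blocks maturation of let-7 microRNAs and keeps fetal blood programs active, had 21.8 and 16.3 FPKM at E10.5, against 67.7 and 72.1 FPKM at E9.5 (-1.83 ± 0.30, limma adjusted p = 0.00827). It was the 1 call among 14 members of its axis, of which 12 lay below 0 (median -0.40), with Hmga2 at 91.9 and 108 FPKM at E10.5, against 175 and 147 FPKM at E9.5 (-0.68 ± 0.26, limma adjusted p = 0.267). Csf1, the growth factor of macrophages, was named through its difference from yolk sac HE and not by the size of its fall. It had 6.30 and 5.30 FPKM at E10.5, against 22.8 and 19.2 FPKM at E9.5 (-1.70 ± 0.16, limma adjusted p = 3.98e-04). Slc18a2, a monoamine carrier of secretory vesicles, had 4.49 and 3.79 FPKM at E10.5, against 20.1 and 15.5 FPKM at E9.5 (-1.86 ± 0.28, limma adjusted p = 0.00501). Lin28a was lost without E9.5 replicate 1 (limma adjusted p = 0.0676), E9.5 replicate 2 (0.0768) or E10.5 replicate 2 (0.0949), and Slc18a2 without E9.5 replicate 1 (0.0671) or E10.5 replicate 2 (0.0584).

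Epithelial and coagulation genes were also among the large falls. Grhl2, a transcription factor of epithelia, had 0.841 and 0.888 FPKM at E10.5, against 6.26 and 6.33 FPKM at E9.5 (-1.97 ± 0.24, limma adjusted p = 0.00201). Nabp1, a protein that binds single-stranded DNA, had 4.77 and 4.2 FPKM at E10.5, against 20.2 and 19.2 FPKM at E9.5 (-1.92 ± 0.25, limma adjusted p = 0.00290). F3, the tissue factor that starts coagulation, had 2.95 and 1.57 FPKM at E10.5, against 9.15 and 10.8 FPKM at E9.5 (-1.78 ± 0.28, limma adjusted p = 0.00676). Lrp2, the endocytic receptor megalin of epithelia, had 1.86 and 1.03 FPKM at E10.5, against 9.62 and 10.1 FPKM at E9.5 (-2.17 ± 0.44, limma adjusted p = 0.0259), and Lrrn4 had 6.69 and 4.99 FPKM at E10.5, against 22.9 and 23.3 FPKM at E9.5 (-1.83 ± 0.41, limma adjusted p = 0.0462). F3 was lost without E9.5 replicate 2 (limma adjusted p = 0.0659) or E10.5 replicate 2 (0.0728), Lrp2 without each of the 4 HE libraries (0.0780 to 0.193), and Lrrn4 passed in 4 of the 16 fits and reached 0.230 without E9.5 replicate 1.
The epithelium and endoderm list had no call. None of its 21 tested members passed, 13 lay below 0 with a median of -0.66, and its FPKM summed to 665 and 395 at E10.5, against 900 and 1170 at E9.5. Krt8 had 233 and 112 FPKM at E10.5, against 396 and 476 FPKM at E9.5 (-1.42 ± 0.57, limma adjusted p = 0.301), and Epcam had 11.6 and 8.72 FPKM at E10.5, against 24.1 and 29.5 FPKM at E9.5 (-1.32 ± 0.31, limma adjusted p = 0.0572). The part of epithelial RNA in the falls of Grhl2, Lrp2 and F3 was not tested.

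**Figure D3:**
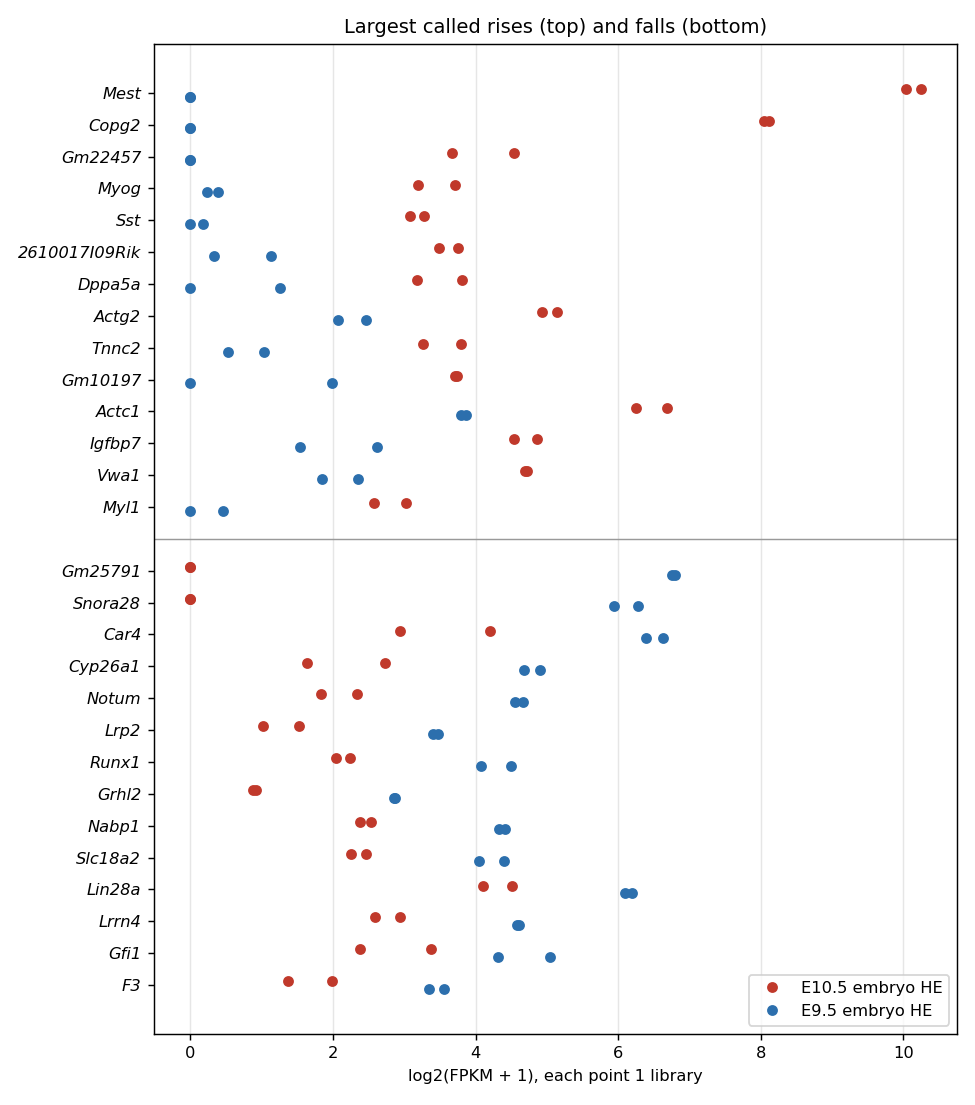
log2(FPKM + 1) in each library for the 14 largest rises (top) and 14 largest falls (bottom) named by rule, with E10.5 embryo HE in red and E9.5 embryo HE in blue. The 2 colours do not overlap for any of these genes, and many rises start near 0 at E9.5.

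Myog and several genes of contractile muscle were among the named rises, a grouping made after their values were seen. Myog, the transcription factor that starts skeletal muscle differentiation, had 8.13 and 12.1 FPKM at E10.5, against 0.179 and 0.303 FPKM at E9.5 (3.14 ± 0.20, limma adjusted p = 1.47e-05). Tnnc2, a troponin of fast skeletal muscle, had 8.62 and 12.9 FPKM at E10.5, against 1.04 and 0.449 FPKM at E9.5 (2.75 ± 0.27, limma adjusted p = 4.96e-04). Myl1, a myosin light chain of the same fibres, had 4.94 and 7.12 FPKM at E10.5, against 0 and 0.369 FPKM at E9.5 (2.57 ± 0.22, limma adjusted p = 2.37e-04). In all 3 genes E10.5 replicate 2 was higher than E10.5 replicate 1. Actc1, the actin of heart and embryonic skeletal muscle, had 75.0 and 102 FPKM at E10.5, against 12.9 and 13.6 FPKM at E9.5 (2.64 ± 0.40, limma adjusted p = 0.00533). Actg2, the actin of visceral smooth muscle, had 29.7 and 34.4 FPKM at E10.5, against 4.53 and 3.19 FPKM at E9.5 (2.77 ± 0.56, limma adjusted p = 0.0260). Actc1 was lost without E9.5 replicate 1 (limma adjusted p = 0.0546) or E10.5 replicate 2 (0.0663), and Actg2 without each of the 4 HE libraries (0.117 to 0.186).

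The Myog promoter is shown as that of the called rise with the smallest adjusted p among genes with a known protein. The window is chr1:134289754-134290053 on the plus strand (GRCm38.p6), and capitals mark its E-boxes (CANNTG), which begin 138 and 12 bases before the start. E-boxes stand in 23528 of 32544 windows (72.3%), so most promoters hold one.
Myog: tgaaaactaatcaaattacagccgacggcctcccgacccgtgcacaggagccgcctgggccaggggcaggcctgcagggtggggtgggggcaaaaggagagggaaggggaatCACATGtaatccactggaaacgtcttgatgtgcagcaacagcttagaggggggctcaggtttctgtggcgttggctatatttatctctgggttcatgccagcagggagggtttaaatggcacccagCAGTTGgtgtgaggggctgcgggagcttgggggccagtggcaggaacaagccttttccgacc

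Lists for the tissue around the vessels give the scale of these rises. Of 14 tested somite genes, Myog and Nkx3-2 rose and Tbx6 fell, and 13 lay above 0 (median 0.43). Among all 12613 tested genes 1.27% were called higher and 0.737% lower, and 6041 lay above 0. Nkx3-2, a factor of the sclerotome, had 2.20 and 2.85 FPKM at E10.5, against 0.269 and 0.367 FPKM at E9.5 (1.41 ± 0.23, limma adjusted p = 0.00779), while Tbx6, of the presomitic mesoderm, had 0.479 and 0.208 FPKM at E10.5, against 3.37 and 2.29 FPKM at E9.5 (-1.50 ± 0.21, limma adjusted p = 0.00435). The somite genes summed to 125 and 131 FPKM at E10.5, against 95.7 and 77.6 FPKM at E9.5. Of 32 mesenchyme and pericyte genes, 3 rose and none fell (median 0.38): the smooth muscle genes Cnn1 (8.31 and 8.64 FPKM at E10.5, against 1.69 and 1.52 FPKM at E9.5; 1.86 ± 0.32, limma adjusted p = 0.00996) and Myh11 (1.60 and 2.18 FPKM at E10.5, against 0.0395 and 0.164 FPKM at E9.5; 1.39 ± 0.20, limma adjusted p = 0.00455), and the pericyte proteoglycan Cspg4 (1.46 and 2.36 FPKM at E10.5, against 0.138 and 0.128 FPKM at E9.5; 1.34 ± 0.18, limma adjusted p = 0.00288). That list summed to 3005 and 3179 FPKM at E10.5, against 3126 and 2670 FPKM at E9.5. The sums overlapped between stages, while 21 of the 32 tested genes lay above 0. A sum is weighted to its most abundant members, so it does not measure mesenchymal content. The part of somite or mural cells in the muscle genes was not tested. Nkx3-2 was lost without E9.5 replicate 1 (limma adjusted p = 0.0760) or E10.5 replicate 2 (0.0756), Cnn1 without each of the 4 HE libraries (0.0618 to 0.0828), and Myh11 without E9.5 replicate 1 (0.0525).

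Nefm, Nefl, Neurog1, Elavl3 and Elavl4, which neurons and their precursors express, rose. Of 22 tested neural and neural crest genes, 5 rose and none fell, against 1.27% called higher among all tested genes, and the list median was 0.45. Nefm, a neurofilament, had 6.07 and 10.8 FPKM at E10.5, against 0.695 and 0.839 FPKM at E9.5 (2.37 ± 0.29, limma adjusted p = 0.00186). Neurog1, a factor that commits sensory neurons, had 2.65 and 3.09 FPKM at E10.5, against 0.541 and 0.249 FPKM at E9.5 (1.48 ± 0.17, limma adjusted p = 0.00145). The neurofilament Nefl (1.64 ± 0.27) and the neuronal RNA-binding proteins Elavl3 (1.28 ± 0.20) and Elavl4 (1.25 ± 0.23) were the other calls. The neural genes summed to 349 and 309 FPKM at E10.5, against 232 and 271 FPKM at E9.5. The largest member of that sum was Crabp1, with overlapping values of 216 and 141 FPKM at E10.5, against 128 and 169 FPKM at E9.5. Crabp1 was not called, so the sum does not measure neural content. The part of neural cells in the rises was not tested. Sst, the peptide hormone somatostatin, was also named, with 8.72 and 7.5 FPKM at E10.5, against 0 and 0.126 FPKM at E9.5 (3.10 ± 0.26, limma adjusted p = 2.37e-04). Elavl3 was lost without E9.5 replicate 1 (limma adjusted p = 0.0572), Nefl without E9.5 replicate 1 (0.0976) or E10.5 replicate 2 (0.0698), and Elavl4 without E9.5 replicate 1 (0.0831), E9.5 replicate 2 (0.129) or E10.5 replicate 2 (0.122).

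Germ cell and pluripotency genes split. Of 18 tested, 5 rose and 2 fell (median 0.44), against 1.27% called higher and 0.737% lower among all tested genes. Dppa5a had 13.0 and 8.08 FPKM at E10.5, against 0 and 1.38 FPKM at E9.5 (2.87 ± 0.42, limma adjusted p = 0.00455). Pou5f1, the Oct4 factor of germ cells, had 5.80 and 5.87 FPKM at E10.5, against 0.378 and 1.65 FPKM at E9.5 (1.84 ± 0.42, limma adjusted p = 0.0475), and Dppa3 had 5.98 and 3.27 FPKM at E10.5, against 0.529 and 0.762 FPKM at E9.5 (1.73 ± 0.32, limma adjusted p = 0.0164). The homeobox genes Rhox6 (1.34 ± 0.22) and Rhox9 (1.77 ± 0.30) were the other rises. The falls were Lin28a and the zinc finger factor Sall4, with 6.88 and 5.74 FPKM at E10.5, against 14.7 and 17.3 FPKM at E9.5 (-1.22 ± 0.24, limma adjusted p = 0.0229). The embryo EC libraries carried more of the risen genes, with Dppa5a at 96.4 and 61.1 FPKM in E10.5 EC, against 6.32 and 7.07 FPKM in E9.5 EC. The list summed to 209 and 172 FPKM in E10.5 HE, against 249 and 247 FPKM in E9.5 HE, and the part of germ cells in the rises was not tested.
Dppa5a passed in every fit that left out 1 library, and the other calls on this list did not. Pou5f1 passed in 6 of the 16 fits and reached 0.371 without E9.5 replicate 1. Dppa3 and Rhox6 were lost without E9.5 replicate 1 (limma adjusted p of 0.139 and 0.0805), E9.5 replicate 2 (0.0828 and 0.0609) or E10.5 replicate 1 (0.142 and 0.0694), and Rhox9 and Sall4 without each of the 4 HE libraries (up to 0.0994 and 0.186).

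Matrix and secreted proteins completed the named rises. Vwa1, a matrix protein with a von Willebrand factor domain, had 25.0 and 25.4 FPKM at E10.5, against 2.59 and 4.1 FPKM at E9.5 (2.61 ± 0.24, limma adjusted p = 3.48e-04). Igfbp7, a secreted binder of insulin-like growth factors that is strong in mature vessels, had 22.3 and 28.1 FPKM at E10.5, against 1.90 and 5.12 FPKM at E9.5 (2.63 ± 0.53, limma adjusted p = 0.0260). Both E10.5 libraries lay well above both E9.5 libraries, although the E9.5 values of Igfbp7 differed from each other. The transcripts 2610017I09Rik (12.5 and 10.2 FPKM at E10.5, against 0.262 and 1.18 FPKM at E9.5; limma adjusted p = 0.00978) and Gm10197 (12.1 and 12.4 FPKM at E10.5, against 0 and 2.96 FPKM at E9.5; limma adjusted p = 0.0212) were named with them. Igfbp7, 2610017I09Rik and Gm10197 were each lost without E9.5 replicate 1 (limma adjusted p of 0.251, 0.115 and 0.132), E10.5 replicate 1 (0.107, 0.0787 and 0.116) or E10.5 replicate 2 (0.179, 0.0670 and 0.129). Of 37 integrin, laminin and matrix genes, Itgb3 was the 1 call (median -0.07).

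5 of the named features are listed at exactly 0 in both libraries of a stage and are given by library only. The imprinted gene Mest had 1054 and 1215 FPKM at E10.5 and was listed at 0 in both E9.5 libraries, and Copg2 had 277 and 264 FPKM at E10.5 and was likewise listed at 0 at E9.5. The same held in embryo EC, where Mest had 1175 and 1485 FPKM at E10.5 and 0 at E9.5, whereas yolk sac HE had 1184 and 962 FPKM at E10.5, against 1460 and 1288 FPKM at E9.5. The annotated genes overlap by 912 bases on opposite strands (GENCODE M21, GRCm38), and reads of one cannot be told from those of the other if strand was not used. Gm22457, whose transcript type was not matched in the annotation, had 11.7 and 22.2 FPKM at E10.5 and 0 at E9.5. The small RNA Gm25791 was listed at 0 at E10.5, against 107 and 110 FPKM at E9.5, and Snora28 was listed at 0 at E10.5, against 76.9 and 60.4 FPKM at E9.5. Zeros of abundant genes in both libraries of a stage can be failed estimates, and no fold between the stages is given for any of the 5 features; Mest, Copg2 and Snora28 also lost their calls without each of the 4 HE libraries (limma adjusted p up to 0.176, 0.152 and 0.0778).

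The metabolic lists leaned one way with few calls. Of 33 glycolysis and hypoxia genes 26 lay below 0 (median -0.40), yet the 1 call was a rise, that of the lactate dehydrogenase subunit Ldhb, with 38.6 and 45.7 FPKM at E10.5, against 10.8 and 14.1 FPKM at E9.5 (1.69 ± 0.28, limma adjusted p = 0.00806). The glucose carrier Slc2a3 had 244 and 80.7 FPKM at E10.5, against 623 and 714 FPKM at E9.5 (-2.24 ± 0.68, limma adjusted p = 0.146). Of 29 cholesterol genes 27 lay below 0 (median -0.40), and the desaturase Scd1 was the 1 fall, with 7.68 and 8.15 FPKM at E10.5, against 24.1 and 20.7 FPKM at E9.5 (-1.39 ± 0.31, limma adjusted p = 0.0475). All 35 ribosomal protein genes lay above 0 (median 0.29) and none was called, beside the larger share of FPKM taken by these genes at E10.5. Ldhb was lost without E9.5 replicate 1 (limma adjusted p = 0.0994) or E10.5 replicate 2 (0.0845), and Scd1 passed in 8 of the 16 fits and reached 0.291 without E9.5 replicate 1. Among 19 imprinted growth genes Mest was the 1 call (median -0.41), with Igf2 at 1694 and 1479 FPKM at E10.5, against 2188 and 2036 FPKM at E9.5. Among 33 Hox genes Hoxb1 was the 1 call (median 0.07). The lists for cell cycle (38 tested, median 0.02), oxidative phosphorylation (27, median 0.26), axon guidance (35, median 0.01), interferon response (22, median 0.24) and immediate early genes of tissue handling (20, median 0.32) had none.

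**Figure D4:**
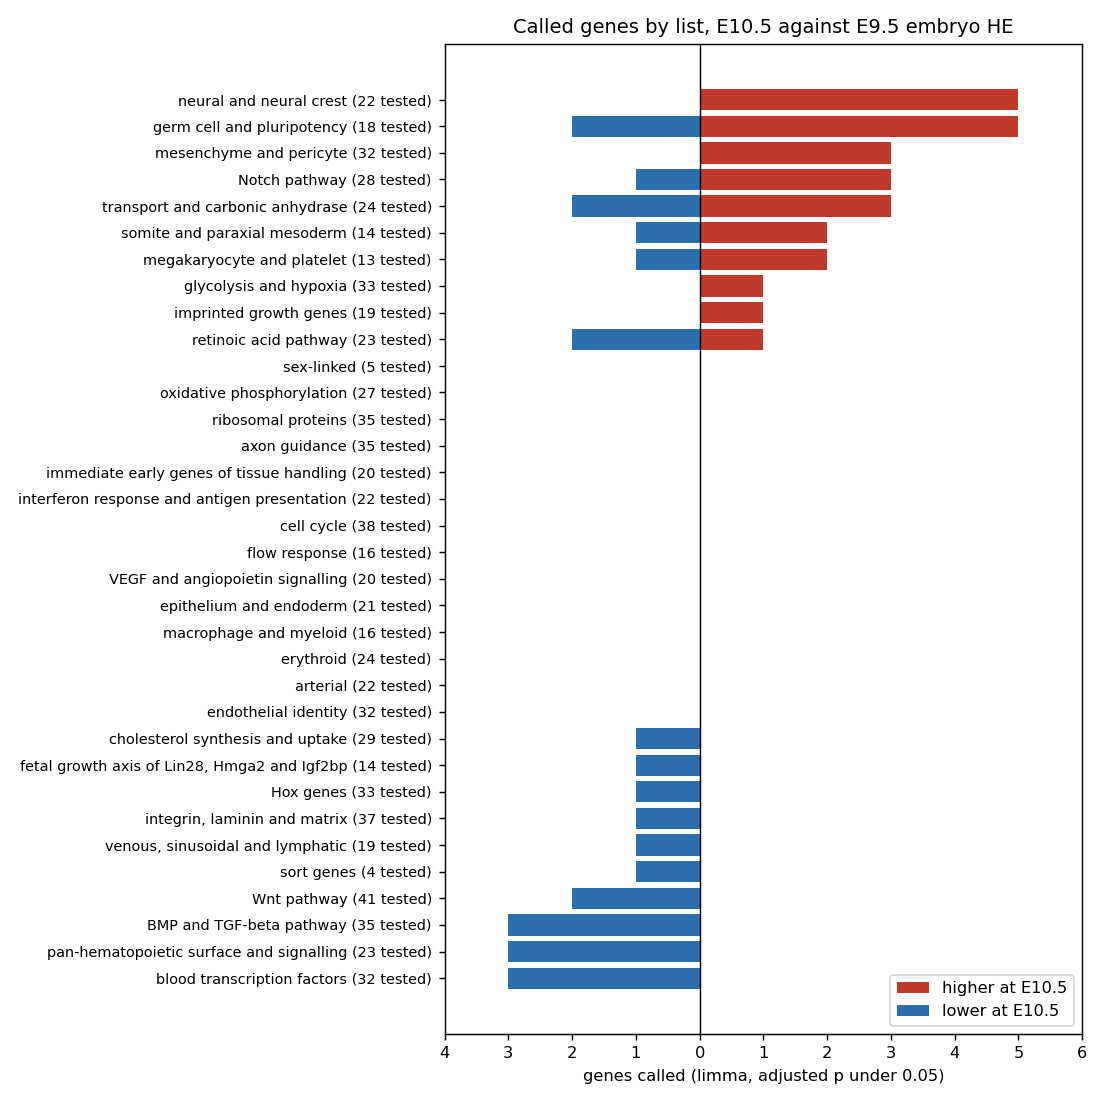
Number of called genes per list in E10.5 against E9.5 embryo HE, with bars to the right for genes higher and to the left for genes lower at E10.5. The neural and germ cell lists have the most rises, 5 each, and no list drawn has more than 3 falls. The list of the 4 marker genes is not drawn.

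The same stage step in embryo EC showed which of these changes were shared. E10.5 against E9.5 embryo EC gave 246 called genes (1.95% of those tested), 102 higher (0.809%) and 144 lower (1.14%), with the 4 EC libraries in place of the 4 HE libraries. Both comparisons come from the same fit and share its estimate of the spread, so their calls are not from independent tests. The genes tested were those kept by the FPKM filter on embryo HE. Genes expressed in EC but not in embryo HE are therefore left out of the EC counts and of shares taken from them. Of the 160 genes higher in HE, 153 (95.6%) were also above 0 in EC, against 48.0% of all tested genes, and 67 were called higher there, which is 41.9% of the HE rises and 65.7% of the EC rises. Of the 93 genes lower in HE, 87 (93.5%) were below 0 in EC, against 52.0% of all tested genes, and 40 were called lower, which is 43.0% of the HE falls and 27.8% of the EC falls. No gene was called in opposite directions. Cyp26a1 had 1.59 and 2.47 FPKM in E10.5 EC, against 16.2 and 15.7 FPKM in E9.5 EC (-2.50, limma adjusted p = 0.00699), and Car4 had 4.12 and 6.49 FPKM in E10.5 EC, against 72.3 and 54.9 FPKM in E9.5 EC (-3.37, limma adjusted p = 0.00186). Myog (2.00, limma adjusted p = 0.00170), Vwa1 (1.87), Stra6 (2.30), Notum (-2.24) and Lin28a (-1.91) were likewise called in EC with the sign they had in HE.

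Runx1 and Gfi1 differed from that pattern in level. Runx1 had 0.805 and 0.956 FPKM in E10.5 EC, against 1.15 and 0.883 FPKM in E9.5 EC (-0.10, limma adjusted p = 0.954), and Gfi1 had 0.498 and 0.361 FPKM in E10.5 EC, against 0.539 and 0.199 FPKM in E9.5 EC (0.07). The difference between the stage changes of HE and EC was -2.04 ± 0.30 for Runx1 (limma adjusted p = 0.0812) and -1.87 ± 0.47 for Gfi1 (0.885), neither past the threshold over 12613 genes, and EC were sorted for absence of the reporter. The difference of Slc18a2 in EC was -0.41 (limma adjusted p = 0.705). Over all tested genes 2 passed the test of that difference (0.0159%), 1 in each direction (0.00793% each), with 315 at an unadjusted p under 0.05. Both were features already given, Gm22457 (limma adjusted p = 4.30e-04) and Gm25791 (limma adjusted p = 0.0139), and both calls rest on groups listed at 0 that can be failed estimates. Gm25791 was listed at 11.6 and 11.6 FPKM in E10.5 EC and 0 in E9.5 EC. Gm25791 lost this call without E9.5 replicate 1 (0.0711), E10.5 replicate 1 (0.0719) or E10.5 replicate 2 (0.0953), and without E9.5 EC replicate 1 (0.0659), E9.5 EC replicate 2 (0.0658), E10.5 EC replicate 1 (0.123) or E10.5 EC replicate 2 (0.0824).

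**Figure D5:**
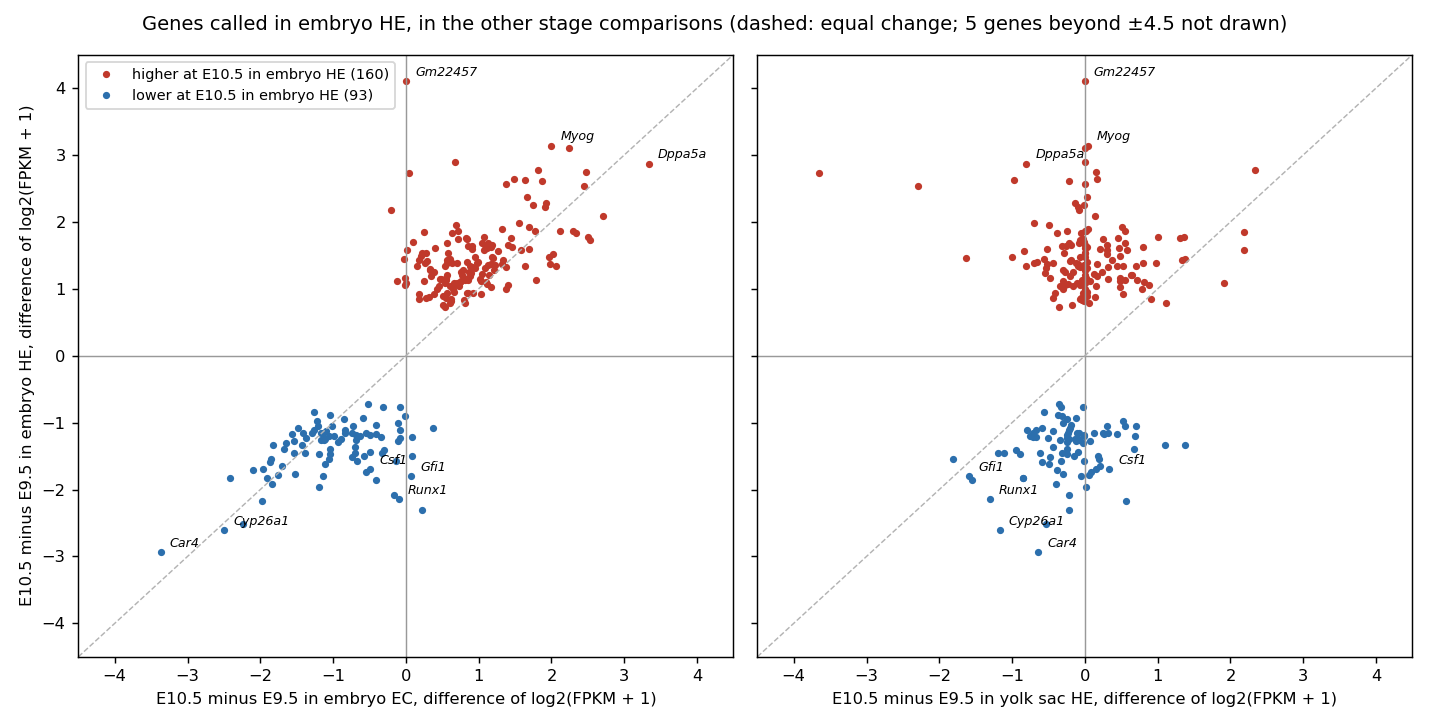
Stage difference of log2(FPKM + 1) in embryo HE (vertical axis) against that in embryo EC (left panel) and in yolk sac HE (right panel, horizontal axes) for the genes called in embryo HE, with axes that end 4.5 units from 0, so that 248 of the 253 genes are drawn. Most points lie in the same quadrant for embryo EC, whereas the rises spread about 0 for yolk sac HE.

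In yolk sac HE the step from E9.5 to E10.5 shared fewer genes with the embryo. Among the genes kept by the same filter on embryo HE, it gave 156 called genes (1.24%), 51 higher (0.404%) and 105 lower (0.832%). The median was -0.17 over all tested genes. Of the 160 rises in embryo HE, 76 (47.5%) were above 0, against 33.2% of all tested genes. Of these rises 8 were called higher, among them the smooth muscle gene Myh11 and the platelet gene Ppbp, and 3 were called lower. The shares by sign include genes such as Neurog1, listed at 0 in all 4 yolk sac HE libraries, whose sign there is only rounding. They are therefore approximate and do not describe expressed genes alone. Of the 93 falls, 69 (74.2%) were below 0, against 66.7% of all tested genes, 1 was called higher and 4 were called lower, namely Runx1, Gfi1, Slc18a2 and Emb, an adhesion protein of the basigin family. Runx1 had 2.19 and 2.17 FPKM in E10.5 yolk sac HE, against 5.81 and 8.10 FPKM in E9.5 yolk sac HE (-1.31, limma adjusted p = 0.0178), and Gfi1 had 0.142 and 0 FPKM in E10.5 yolk sac HE, against 2.06 and 2.38 FPKM in E9.5 yolk sac HE (-1.59, limma adjusted p = 0.0438). Cyp26a1 and Car4 were not called there, at 0.349 and 0.302 FPKM in E10.5 yolk sac HE against 1.19 and 3.08 FPKM in E9.5 yolk sac HE for Cyp26a1, and 106 and 152 FPKM in E10.5 yolk sac HE against 203 and 193 FPKM in E9.5 yolk sac HE for Car4. The libraries labelled E10.5 yolk sac HE also had lower levels of endothelial genes. Pecam1 had 47.6 and 12.6 FPKM in E10.5 yolk sac HE, against 111 and 48.8 FPKM in E9.5 yolk sac HE (-1.54 ± 0.50, limma adjusted p = 0.108), and Tie1 had 47.4 and 12.8 FPKM in E10.5 yolk sac HE, against 186 and 72.3 FPKM in E9.5 yolk sac HE (-2.18 ± 0.54, limma adjusted p = 0.0613). Their Runx1 overlapped that of E10.5 yolk sac EC, as given above, and the part of cell content in the yolk sac falls and in the differences between the sites was not tested. For none of the 4 did the stage change differ between embryo and yolk sac HE past the threshold (limma adjusted p of 0.168 for Runx1, 0.839 for Gfi1, 0.167 for Cyp26a1 and 0.0649 for Car4).

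The stage change did differ between the sites for 69 genes (0.547%), 52 (0.412%) with the more positive change in embryo HE and 17 (0.135%) with the more positive change in yolk sac HE, and 2504 had an unadjusted p under 0.05. This split was 47 and 34 after median scaling, and 43 and 37 after quantile normalisation. The embryo HE libraries had 0.270% to 0.452% of the tested genes at 0, against 2.02% and 3.40% in the libraries labelled E10.5 yolk sac HE. E10.5 yolk sac EC replicate 1 had 2.81% at 0. The count was 1095 without E10.5 yolk sac HE replicate 1, 26 without replicate 2 and 14 without E9.5 yolk sac HE replicate 1. It was 19 to 42 without any 1 of the 4 embryo HE libraries and 29 without either E9.5 embryo EC library. Csf1 fell in embryo HE and had 23.4 and 20.2 FPKM in E10.5 yolk sac HE, against 16.8 and 17.3 FPKM in E9.5 yolk sac HE (difference of changes -2.03 ± 0.23, limma adjusted p = 0.00409). Ccdc80, a matrix protein, had 16.5 and 14 FPKM in E10.5 embryo HE, against 41.8 and 38.0 FPKM in E9.5 embryo HE, but 55.2 and 42.5 FPKM in E10.5 yolk sac HE, against 22.2 and 22.0 FPKM in E9.5 yolk sac HE (-2.43 ± 0.31, limma adjusted p = 0.00523). Cd40, a receptor of the TNF family, had 32.3 and 34.1 FPKM in E10.5 embryo HE, against 8.52 and 15.1 FPKM in E9.5 embryo HE, but 1.41 and 0.285 FPKM in E10.5 yolk sac HE, against 4.82 and 4.15 FPKM in E9.5 yolk sac HE (3.10 ± 0.43, limma adjusted p = 0.0107). Csf1 and Ccdc80 passed in each fit that left out 1 library, and Cd40 was lost without E9.5 yolk sac HE replicate 1 (0.0615) or E10.5 embryo HE replicate 2 (0.0517).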

How the data were processed

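RNA-seq was made from sorted cells in 8 groups of 2 libraries. The authors deposited FPKM per gene symbol for 16 libraries. Cufflinks, featureCounts and mm9 are named per the submitters' processing notes, without version or role. Aligner, annotation and strand setting were not given in the sources used here. Values were used without rescaling, as log2(FPKM + 1), which understates changes of low genes. limma 3.58.1 (R 4.3.3) was fitted to all 16 libraries with 1 mean per group and an intensity trend (8 residual and 3.8 prior degrees of freedom), two-sided, with Benjamini-Hochberg adjustment over 12613 genes and a threshold of 0.05. The fit was run on simulated data with large planted changes and a capped spread, which does not cover smaller changes or noisier genes. Differences between stage changes are interaction contrasts of the same fit. The 35 gene lists and the members were chosen with earlier results of these data known. Named genes were the 14 largest rises and falls, and for each interaction the 6 largest on each side. They needed an adjusted p under 0.05, a mean of at least 5 FPKM in the higher stage, no overlap, and no 0 beside a replicate of 3 FPKM or more. Marker, sort and list genes were added. Promoter windows are RefSeq sequence of GRCm38.p6, not mm9, and were matched by symbol. Alternatives covered pseudocount, filters, scaling, a replicate block, weights, the trend, subsets of libraries and leaving out each library. Figures used Python 3.11.15 and matplotlib 3.10.9.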

Additional observations from a re-analysis of the deposited data

Results flagged for a closer look

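These 14 differences between stage changes were set out because the test of the difference itself passed (limma interaction, adjusted p under 0.05), as the naming rule selects them. Against embryo EC the stage change of embryo HE was more positive for Gm22457 (4.1) and more negative for Gm25791 (-10.43), 2 features listed at 0 in whole groups. Such zeros can be failed estimates, so these values, and those of Gm10197, Gm22457 and Dppa5a below, are differences on the log2(FPKM + 1) scale only and no fold is read from them. Against yolk sac HE it was more positive for Gm10197 (6.39), Mylpf (4.83), Gm22457 (4.1), Dppa5a (3.67), Myog (3.10) and Cd40 (3.10). Mylpf, a fast muscle myosin light chain, had 18.3 and 29.4 FPKM in E10.5 embryo HE, against 2.65 and 3.73 FPKM in E9.5 embryo HE, and 1.21 and 0 FPKM in E10.5 yolk sac HE, against 7.24 and 5.40 FPKM in E9.5 yolk sac HE. Myog was at or under 0.0539 FPKM in all 4 yolk sac HE libraries, and Dppa5a was listed at 0 in both E10.5 libraries there, against 0.845 and 0.656 FPKM in both E9.5 libraries.

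It was more negative in embryo HE than in yolk sac HE for Thbs1 (-3.27), Npnt (-2.70), Col2a1 (-2.70), Ccdc80 (-2.43), Fn1 (-2.04) and Csf1 (-2.03). Except for Csf1, these genes encode extracellular matrix or matrix-associated proteins. Thbs1 had 4.12 and 5.07 FPKM in E10.5 embryo HE, against 8.53 and 8.01 FPKM in E9.5 embryo HE, and 54.1 and 57.9 FPKM in E10.5 yolk sac HE, against 6.27 and 12.3 FPKM in E9.5 yolk sac HE. Npnt had 8.66 and 7.66 FPKM in E10.5 embryo HE, against 18.4 and 26.2 FPKM in E9.5 embryo HE, and 23.8 and 25.1 FPKM in E10.5 yolk sac HE, against 7.55 and 10.3 FPKM in E9.5 yolk sac HE. Fibronectin (Fn1) had 119 and 146 FPKM in E10.5 embryo HE, against 291 and 259 FPKM in E9.5 embryo HE, and 435 and 590 FPKM in E10.5 yolk sac HE, against 239 and 271 FPKM in E9.5 yolk sac HE. For Col2a1 both sites were higher at E10.5, with 17.9 and 20.9 FPKM in E10.5 embryo HE, against 8.89 and 6.10 FPKM in E9.5 embryo HE, and 60.9 and 38.3 FPKM in E10.5 yolk sac HE, against 1.60 and 2.75 FPKM in E9.5 yolk sac HE.

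Of the 12 contrasts with yolk sac HE, Gm10197, Gm22457, Myog, Thbs1, Ccdc80 and Csf1 passed in each fit that left out 1 library. The highest adjusted p in such fits was 0.0535 for Mylpf, 0.0615 for Cd40, 0.102 for Dppa5a and for Npnt (these 4 without E9.5 yolk sac HE replicate 1), 0.115 for Col2a1 and 0.132 for Fn1 (both without E9.5 embryo HE replicate 1).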

How the results depend on the processing

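The 253 genes called between the stages of embryo HE became 78 with a pseudocount of 0.1, 35 with a mean of at least 5 FPKM required, 432 with library quality weights and 430 with only the 8 embryo libraries. Other settings gave 235 to 350, and fits without 1 library 78 (E9.5 embryo HE replicate 1) to 336. The 2 calls of the difference from embryo EC became 1 with a pseudocount of 0.1, 12 with no filter, 1 with the mean filter and 4 with the 8 embryo libraries, and 1 to 5 (E9.5 embryo HE replicate 2) without 1 library. The 69 calls of the difference from yolk sac HE became 23 with a pseudocount of 0.1, 184 with no filter, 18 with the mean filter, 38 with weights and 24 with only the 8 HE libraries, and 14 (E9.5 yolk sac HE replicate 1) to 1095 (E10.5 yolk sac HE replicate 1) without 1 library. The split of these 69 into 52 and 17 was 12 and 12 with the 8 HE libraries. For the mean filter the stage calls split into 15 higher and 20 lower, against 160 and 93.

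The labels do not say that replicate numbers mark a shared animal, litter or day. Same-numbered samples deviated with a correlation of -0.103 between the embryo HE stages and 0.166 between the yolk sac HE stages, and of -0.305 to 0.441 over 28 pairs of groups, with the highest between E9.5 yolk sac HE and E9.5 yolk sac EC. With a replicate block 235 genes were called, and 236 with the numbers of E10.5 crossed, a setting chosen after seeing the data. The block gave 2 and 99 calls for the differences from embryo EC and yolk sac HE.

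Over single genes and alternatives, 1253 results kept direction and side of the threshold, 152 kept direction and missed it, 3 passed that had not, and none reversed. The 3 were the Runx1 difference from embryo EC without an intensity trend (limma adjusted p = 0.0404) and Itga2b in 2 subsets of the libraries. Most of the single genes had been named because they passed, so a kept direction is no test of them. Leaving out a library outside the groups compared cannot change the difference itself. With only the 4 embryo HE libraries 150 of the 253 remained called, with Gfi1 at 0.0515, and 249 without both E10.5 yolk sac HE libraries. The causes were not tested. The depth in reads is unknown, and with 2 libraries a stage 1 library decides many calls.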

Other observations

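Some called genes outside the lists share a known place of expression and were picked after their values were seen, so no test is attached to the grouping. Cdx2, Cdx4, Fgf17 and Hes3, which the tail bud is known to express, were lower at E10.5. Cdx2 had 0.495 and 0.723 FPKM at E10.5, against 2.84 and 5.35 FPKM at E9.5 (-1.62, limma adjusted p = 0.0247), and Cdx4 had 0.0829 and 0 FPKM at E10.5, against 1.43 and 1.23 FPKM at E9.5 (-1.16, adjusted p = 0.00754). Fgf17 had 0 and 0.411 FPKM at E10.5, against 1.76 and 2.08 FPKM at E9.5 (-1.30, limma adjusted p = 0.00491), and Hes3 had 0.289 and 0.0516 FPKM at E10.5, against 2.24 and 1.47 FPKM at E9.5 (-1.28, adjusted p = 0.00784). All were under 6 FPKM in every embryo HE library, and in embryo EC Fgf17 alone among them was also called (-0.94). Cdx2 was lost without E9.5 replicate 2 (limma adjusted p = 0.218), E10.5 replicate 1 (0.152) or E10.5 replicate 2 (0.103), Cdx4 without E9.5 replicate 1 (0.0695) or E10.5 replicate 2 (0.0632), and Hes3 without E9.5 replicate 1 (0.0904) or E10.5 replicate 2 (0.0756).

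Among the rises, endothelial and signalling genes with higher levels stood beside the muscle and neuronal ones. Ramp3, a partner of the adrenomedullin receptor, had 21.6 and 16.7 FPKM at E10.5, against 2.45 and 4.12 FPKM at E9.5 (2.25, limma adjusted p = 8.59e-04). Foxq1, a forkhead factor, had 7.20 and 8.30 FPKM at E10.5, against 1.14 and 1.48 FPKM at E9.5 (1.92, adjusted p = 0.00145), and Ckb, a creatine kinase, had 119 and 116 FPKM at E10.5, against 32.7 and 34.8 FPKM at E9.5 (1.77, adjusted p = 8.59e-04). Gpr183, a receptor for oxysterols, had 5.50 and 7.68 FPKM at E10.5, against 1.08 and 1.84 FPKM at E9.5 (1.63, adjusted p = 0.00213). All 4 were called higher in embryo EC too, with differences of 1.75, 1.69, 1.44 and 1.46, and passed in every fit that left out 1 library. Nhlh2 and Tlx2 encode transcription factors known from neurons and their precursors. Nhlh2 had 2.00 and 2.81 FPKM at E10.5, against 0.209 and 0.0152 FPKM at E9.5 (1.61, adjusted p = 8.59e-04), and Tlx2 had 2.40 and 3.98 FPKM at E10.5, against 0.370 and 0.240 FPKM at E9.5 (1.66, adjusted p = 0.00162).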
